A study of Mus musculus with 55 samples.

Results

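The genes described here are 8 interferon response genes, chosen by name as Irf7, Oasl2, Oas1a, Ifit1, Ifit3, Isg15, Usp18 and Bst2, out of 24453 genes in a table of RPKM values (read counts scaled to transcript length and to the mapped reads of the library). The table holds 55 libraries of mouse skeletal muscle RNA. The mice were mdx, which carry a mutation in the dystrophin gene Dmd and are used as a model of Duchenne muscular dystrophy, or wild type (wt). Their flexor digitorum brevis (FDB), soleus (SOL) and extensor digitorum longus (EDL) were taken at 5 or 2 months of age. At 5 months there were 7 FDB, 7 SOL and 6 EDL libraries from mdx mice, against 4 FDB, 4 SOL and 4 EDL libraries from wt mice. At 2 months there were 3 FDB, 4 SOL and 4 EDL libraries from mdx mice, against 4, 4 and 4 from wt mice. The labels name no strain background, sex or treatment, and do not say that the libraries of a group are separate animals. The p-values therefore rest on the spread from library to library, which may be technical.

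Interferons are secreted when a cell senses foreign or misplaced nucleic acid. Type I interferons bind a receptor whose kinases activate Stat2, which acts with Irf9 in a complex that binds the interferon-stimulated response element, a repeat of GAAA, in front of its target genes. Irf7 is a transcription factor that raises further interferon production. Oas1a makes the messenger that activates RNase L, which degrades RNA, and Oasl2 is a relative of the same family. Ifit1 and Ifit3 bind foreign RNA and each other. Isg15 is a ubiquitin-like protein joined to other proteins, and Usp18 removes it and also damps signalling at the receptor. Bst2, also called tetherin, holds budding viruses at the cell surface. Macrophages, which enter damaged dystrophic muscle in large numbers, also respond to interferons.

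The sequences in front of 7 of the 8 genes could be searched for the core of that element, and 5 of them hold it, so the stretches with the matches are shown. Usp18 has no window in the table used. The motif was GAAA, any 2 bases, then GAAA again, read on either strand (TTTC, 2 bases, TTTC on the other one), with overlapping matches counted, in a window from 250 bases before to 50 bases after each gene's start in RefSeq (GRCm38.p6). Capitals mark the matched letters, and each stretch is written 5′ to 3′ along the gene's strand.
Isg15 (chr4:156200860-156200911, minus strand): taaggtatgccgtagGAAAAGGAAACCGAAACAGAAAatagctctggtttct
Ifit1 (chr19:34640770-34640828, plus strand): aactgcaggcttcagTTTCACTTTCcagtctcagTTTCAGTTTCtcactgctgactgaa
Ifit3 (chr19:34583358-34583431, plus strand): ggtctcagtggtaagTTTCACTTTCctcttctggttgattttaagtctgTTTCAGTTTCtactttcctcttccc
Oas1a (chr5:120907526-120907560, minus strand): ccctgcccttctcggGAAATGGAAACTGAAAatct
Bst2 (chr8:71537572-71537617, minus strand): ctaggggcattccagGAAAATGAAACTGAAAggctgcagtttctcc
Isg15 held 3 overlapping matches, and Ifit1, Ifit3, Oas1a and Bst2 held 2 each. In Isg15, Oas1a and Bst2 the repeats run into each other, while those of Ifit1 and Ifit3 stand apart and lie on the other strand. The match farthest from the start began 156 bases before it in Ifit3, and the nearest of these first matches began 20 bases before it in Oas1a. Of all 27025 genes with such a window, 3.99% held the motif. Among the other genes of the interferon lists described further on, 35 of the 84 with a window held it (41.7%). None of 5 receptor genes and none of 4 genes of ISG15 conjugation did. Among lists of cell type markers, 2 of 6 NK cell markers held it, and 0 of 9 macrophage markers. At 3.99% of all genes, 0 in a list this small is no contrast. Irf7 and Oasl2 held no match in their windows. A match is a run of letters, not a measured binding site.

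The genes lie on 6 chromosomes in mm10, the build of the table: Irf7 on chromosome 7 (141262706 to 141266481, minus strand), Oasl2 on chromosome 5 (114896936 to 114912234, plus strand) and Oas1a on chromosome 5 (120896256 to 120907521, minus strand). Ifit3 (34583531 to 34588731) and Ifit1 (34640871 to 34650009) lie on the plus strand of chromosome 19, with Ifit3b (34607970 to 34613401) between them. Isg15 is on chromosome 4 (156199424 to 156200818, minus strand), Usp18 on chromosome 6 (121245906 to 121270917, plus strand) and Bst2 on chromosome 8 (71534255 to 71537456, minus strand). Close copies limit both family pairs: the longest transcripts of Ifit3 and Ifit3b were 98.0% identical over 1697 aligned bases, and those of Oas1a and Oas1g 97.7% over 1859. No source used here says how reads shared by such copies were counted, and the levels of Ifit3 and Oas1a are uncertain to that extent.

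Depth, estimated from the steps between low RPKM values, was about 20.3 to 64.4 M reads a library (median 49.2 M). Dmd measured 1.55 to 3.91 RPKM in the 31 mdx libraries and 6.42 to 12.1 RPKM in the 24 wt libraries, with no overlap. Ckm and Acta1, genes of the muscle fibre, were at least 2734 and 8274 RPKM in every library. Myh7, the myosin of slow fibres, measured 191 to 384 RPKM in FDB, 798 to 2957 RPKM in SOL and 0.763 to 18.3 RPKM in EDL. Differences between genotypes were tested with limma on log2(RPKM + 1) over the 12541 genes whose mean RPKM was 0.5 or more, with Benjamini-Hochberg adjustment, and a gene is called changed at an adjusted p below 0.05. By this test many genes were higher in mdx than in wt muscle: 53.1% (FDB), 52.9% (SOL) and 60.2% (EDL) at 5 months, while at 2 months 30.0%, 32.3% and 41.6% were. Fewer were lower: 9.46%, 11.3% and 8.52% at 5 months, then 4.60%, 7.68% and 8.69% at 2 months. The split moved with the scaling of the libraries. After median-of-ratios scaling 9.76% to 28.0% of genes were higher and 16.4% to 38.0% lower, and the median change of all genes moved to between -0.06 and -0.02, against 0.10 to 0.23 as deposited. Changes of the interferon genes are therefore also given relative to the median of all genes, and their counts under both scalings.

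All 8 genes passed the filter on low values, and none was at 0 in any library. Bst2 had the highest level, with a mean of 11.2 RPKM over the 55 libraries, while the other 7 averaged between 1.115 RPKM (Oas1a) and 3.04 RPKM (Ifit3). For all 8 the mean was highest in EDL of mdx mice at 2 months. It was lowest in FDB of wt mice at 5 months for 7 of them, and for Isg15 in EDL of wt mice at 5 months. In the order of the 12 group means most neighbours could not be told apart. Among the 11 neighbouring pairs of each gene, the ranges overlapped in 9 for Oasl2, in 10 for Irf7, Oas1a, Usp18 and Bst2, and in all 11 for Ifit1, Ifit3 and Isg15. Among the mdx groups, FDB at 5 months had the lowest mean of every gene.

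**Figure D1:**
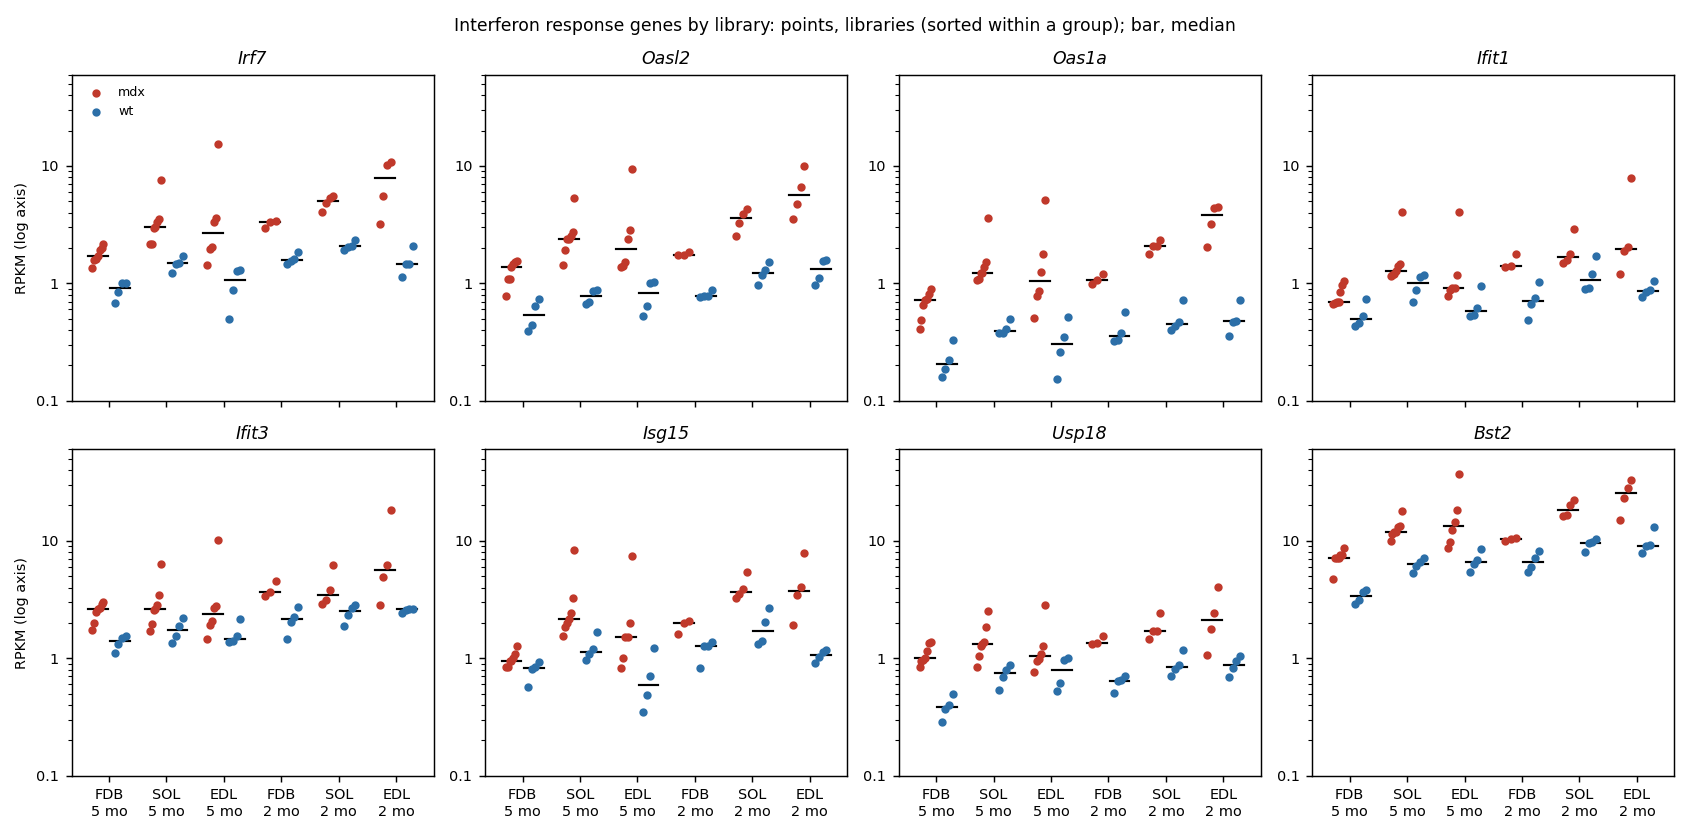
RPKM of each of the 8 genes (log axis) in each library, by muscle, age and genotype, mdx left of wt, with a bar at each group's median. In EDL and SOL of mdx mice at 5 months 1 library stands above the rest in most panels (Irf7 15.3 and 7.61 RPKM), and in EDL at 2 months every mdx library lies above every wt library.

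In EDL all 8 genes rose in mdx muscle at 2 months, where 41.6% of all genes did, by 2.54-fold (Bst2) to 6.96-fold (Oas1a) in the ratio of mean RPKM, and 5 of 8 rose at 5 months, where 60.2% did. In SOL 6 of 8 rose at 5 months (52.9% of all genes) and 6 at 2 months (32.3%). In FDB 4 rose at 5 months (53.1% of all genes) and 1, Usp18, at 2 months (30.0%), when the spread was estimated over all 12 groups. When only the FDB libraries of the same age entered the fit, 7 rose at 5 months (51.3% of all genes) and 8 at 2 months (40.2%). None of the 8 fell in any of the 6 comparisons, where 4.60% to 11.3% of all genes did.

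Irf7, the regulator among them, measured 3.18, 5.51, 10.3 and 10.7 RPKM in EDL of mdx mice at 2 months, against 1.14, 1.47, 1.47 and 2.08 RPKM in wt mice. The groups did not overlap, and the lowest mdx library was above the highest wt one. The log2 change was 1.62 ± 0.31 (SE; limma, Benjamini-Hochberg adjusted p = 2.0e-05). In SOL at 2 months the mdx libraries had 4.07, 4.82, 5.30 and 5.59 RPKM of Irf7 and the wt libraries 1.94, 2.03, 2.096 and 2.35 RPKM, again without overlap, and the gene rose by 0.93 (limma adjusted p = 0.0125). In FDB at 2 months it had 2.97, 3.31 and 3.39 RPKM in mdx and 1.46, 1.54, 1.61 and 1.86 RPKM in wt mice. Those groups were also apart, but the log2 change of 0.69 had a limma adjusted p of 0.0968.

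At 5 months Irf7 had a lowest, median and highest value of 1.43, 2.70 and 15.3 RPKM in EDL of mdx mice, against 0.497, 0.873, 1.27 and 1.29 RPKM in the wt libraries. All 6 mdx libraries were above all 4 wt libraries, with 1 mdx library far above the others, whose next value was 3.59 RPKM. The gene rose by 1.17 on the log2 scale (limma adjusted p = 2.9e-04). In SOL the values were 2.15, 3.04 and 7.61 RPKM in mdx, against 1.23 to 1.71 RPKM in wt mice (log2 change 0.80, limma adjusted p = 0.0089). In FDB they were 1.35, 1.72 and 2.18 RPKM in mdx, against 0.683 to 1.02 RPKM in wt mice. Every mdx library was above every wt library there too, and the ratio of the means was 2.00, with a limma adjusted p of 0.0707.

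The 2 genes of the OAS family passed in the same 5 comparisons. Oasl2 measured 3.52, 4.71, 6.63 and 9.95 RPKM in EDL of mdx mice at 2 months, against 0.974, 1.10, 1.56 and 1.60 RPKM in wt mice (log2 change 1.57 ± 0.26 SE, limma adjusted p = 2.2e-06). Oas1a measured 2.06, 3.18, 4.41 and 4.47 RPKM against 0.356, 0.471, 0.479 and 0.724 RPKM there (1.55 ± 0.22 SE, limma adjusted p = 1.7e-07). Both were free of overlap, and Oas1a showed the largest ratio of means of the 8 genes in that comparison.
In SOL at 2 months Oasl2 had 2.52, 3.25, 3.93 and 4.33 RPKM in mdx and 0.974, 1.17, 1.30 and 1.51 RPKM in wt mice. Oas1a had 1.77, 2.07, 2.096 and 2.36 RPKM in mdx and 0.403, 0.434, 0.470 and 0.717 RPKM in wt mice. Both rose, with log2 changes of 1.0 and 1.03 (limma adjusted p = 0.00173 and 2.3e-04). In FDB at 2 months Oasl2 had 1.73, 1.73 and 1.85 RPKM in mdx, against 0.770 to 0.885 RPKM in wt mice, and Oas1a 0.985, 1.08 and 1.2 RPKM, against 0.321 to 0.568 RPKM. The groups were apart for both genes, but neither passed the test (limma adjusted p = 0.0788 and 0.0563).

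At 5 months Oasl2 reached 1.39, 1.96 and 9.37 RPKM (lowest, median, highest) in EDL of mdx mice, against 0.524 to 1.02 RPKM in wt mice, and Oas1a 0.508, 1.05 and 5.10 RPKM, against 0.153 to 0.521 RPKM. Both rose (log2 changes 0.99 and 0.87, limma adjusted p = 2.9e-04 and 2.4e-04). The lowest Oas1a value of an mdx library lay just under the highest wt value, so this gene's groups overlapped while those of Oasl2 did not. In SOL Oasl2 had 1.44, 2.40 and 5.36 RPKM in mdx and 0.665 to 0.871 RPKM in wt mice, and Oas1a 1.07, 1.24 and 3.63 RPKM against 0.378 to 0.498 RPKM. Both rose there without overlap, by 0.99 and 0.82 (limma adjusted p = 2.1e-04 and 4.0e-04). In FDB Oasl2 had 0.785, 1.37 and 1.54 RPKM in mdx and 0.393 to 0.739 RPKM in wt mice. Oas1a had 0.410, 0.726 and 0.900 RPKM against 0.161 to 0.327 RPKM. These were apart as well, and the log2 changes of 0.54 and 0.45 were close to the threshold (limma adjusted p = 0.0379 and 0.0459). On the log2(RPKM + 1) scale the change of genes at such low levels is understated: the ratio of mean Oas1a in FDB was 3.004.

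The IFIT genes, which bind RNA, rose in EDL at 2 months and passed in no other comparison. Ifit1 measured 1.21, 1.88, 2.04 and 7.89 RPKM in mdx and 0.762, 0.840, 0.883 and 1.05 RPKM in wt mice (log2 change 0.94, limma adjusted p = 0.00205). Ifit3 measured 2.84, 4.94, 6.27 and 18.3 RPKM in mdx and 2.41, 2.59, 2.61 and 2.63 RPKM in wt mice (1.08, limma adjusted p = 0.00307). The groups did not overlap, but 1 mdx library had the highest value of both genes. Without that library, ns35, the changes were 0.51 (limma adjusted p = 0.0572) and 0.63 (limma adjusted p = 0.0673), and neither gene passed.
In FDB at 2 months Ifit1 had 1.38, 1.42 and 1.79 RPKM in mdx and 0.485 to 1.02 RPKM in wt mice, and Ifit3 3.40, 3.68 and 4.51 RPKM against 1.47 to 2.75 RPKM. The groups were apart but the limma adjusted p-values were 0.118 and 0.124. In SOL at 2 months Ifit1 overlapped, with 1.499 to 2.93 RPKM in mdx and 0.888 to 1.72 RPKM in wt mice, and Ifit3 did not, with 2.87 to 6.27 against 1.87 to 2.83 RPKM. At 5 months neither IFIT gene passed in any muscle, with limma adjusted p-values between 0.0627 (Ifit3 in EDL) and 0.398 (Ifit1 in FDB).

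Isg15 and Usp18, the modifier and the protease that removes it, differed in where they passed. Isg15 measured 1.94, 3.46, 4.02 and 7.80 RPKM in EDL of mdx mice at 2 months, against 0.919, 1.02, 1.12 and 1.18 RPKM in wt mice (log2 change 1.25, limma adjusted p = 4.3e-04). In SOL at 2 months it had 3.26, 3.52, 3.87 and 5.42 RPKM in mdx and 1.33, 1.40, 2.04 and 2.67 RPKM in wt mice (0.82, limma adjusted p = 0.0239). Both pairs of groups were apart. At 5 months Isg15 rose in EDL (0.830 to 7.48 RPKM in mdx, against 0.346 to 1.23 RPKM in wt mice; log2 change 0.80, limma adjusted p = 0.00806). It also rose in SOL, with 1.56 to 8.35 RPKM in mdx and 0.969 to 1.68 RPKM in wt mice (0.74, limma adjusted p = 0.0127), and the ranges overlapped in both muscles. In FDB it had 0.840 to 1.28 RPKM in mdx and 0.572 to 0.920 RPKM in wt mice at 5 months, and 1.60 to 2.09 against 0.829 to 1.39 RPKM at 2 months. Neither FDB difference passed (limma adjusted p = 0.611 and 0.331). The 5-month log2 change of 0.16 for Isg15 turned to -0.11 with quantile normalization.

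Usp18 rose in FDB at both ages. It had 0.841, 0.995 and 1.38 RPKM (lowest, median, highest) in FDB of mdx mice at 5 months, against 0.289, 0.371, 0.402 and 0.495 RPKM in wt mice (log2 change 0.59, limma adjusted p = 0.0012). At 2 months FDB had 1.32, 1.34 and 1.55 RPKM in mdx and 0.507, 0.639, 0.648 and 0.709 RPKM in wt mice (0.56, limma adjusted p = 0.019). No mdx value reached down to a wt value in either. In SOL it rose by 0.48 at 5 months (0.847 to 2.52 RPKM in mdx, 0.540 to 0.869 RPKM in wt mice; limma adjusted p = 0.00641) and by 0.57 at 2 months (1.47 to 2.41 against 0.713 to 1.18 RPKM; limma adjusted p = 0.00857). In EDL it rose by 0.76 at 2 months (1.06, 1.79, 2.41 and 4.08 RPKM in mdx, 0.688, 0.826, 0.942 and 1.05 RPKM in wt mice; limma adjusted p = 3.8e-04). In EDL at 5 months the ranges overlapped, with 0.767 to 2.85 RPKM in mdx and 0.522 to 1.004 RPKM in wt mice, and the limma adjusted p was 0.0545.

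Bst2, the tetherin, rose in 5 of the 6 comparisons. In EDL at 2 months it had 14.98, 23.2, 27.9 and 32.9 RPKM in mdx and 7.82, 8.99, 9.14 and 13.1 RPKM in wt mice (log2 change 1.23, limma adjusted p = 1.8e-05). In SOL at 2 months it had 16.3, 16.6, 20.2 and 22.4 RPKM against 8.07, 9.49, 9.82 and 10.4 RPKM (0.92, limma adjusted p = 0.00116). The groups stood apart in both. At 5 months the lowest, median and highest mdx values of Bst2 were 4.74, 7.16 and 8.68 RPKM in FDB, against 2.87 to 3.81 RPKM in wt mice. They were 9.98, 11.96 and 18.1 RPKM in SOL, against 5.30 to 7.08 RPKM, and 8.67, 13.4 and 37.2 RPKM in EDL, against 5.46 to 8.54 RPKM. No range overlapped, and Bst2 rose by 0.88, 0.92 and 1.04 in FDB, SOL and EDL (limma adjusted p = 2.2e-04, 1.3e-04 and 3.1e-05). In FDB at 2 months it had 9.98, 10.4 and 10.7 RPKM in mdx and 5.40, 5.93, 7.15 and 8.17 RPKM in wt mice, apart, with a log2 change of 0.58 and a limma adjusted p of 0.0621.

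**Figure D2:**
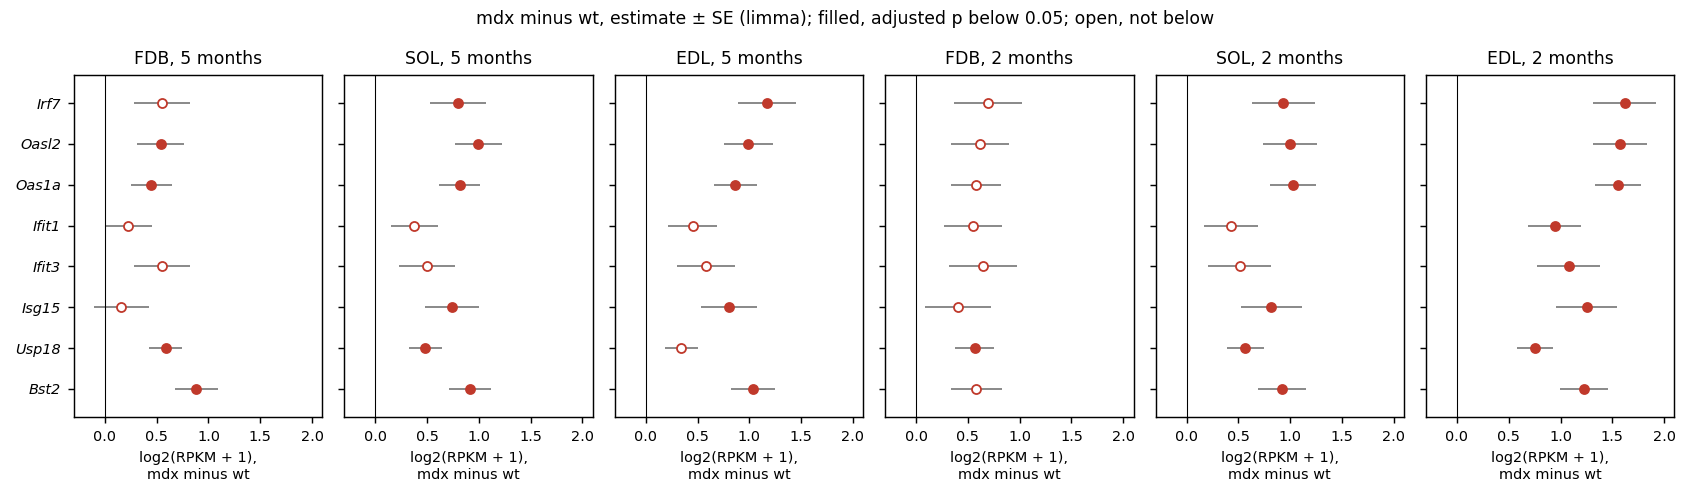
Change in mdx against wt muscle for each gene, in log2(RPKM + 1) with its standard error, by muscle and age; filled points have a limma adjusted p below 0.05. All 48 changes lie above 0, and those of EDL at 2 months reach from 0.76 (Usp18) to 1.62 (Irf7).

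Read against all genes, the share of the 8 that rose was above the background in EDL at 2 months and in SOL at both ages. In EDL and FDB at 5 months it was close to that of all genes, and in FDB at 2 months below it. Why the FDB counts were higher with the FDB libraries alone was not tested. With median-of-ratios scaling the counts were 2, 5 and 5 in FDB, SOL and EDL at 5 months, where 26.0%, 28.0% and 25.8% of all genes were higher. They were 0, 5 and 8 at 2 months, where 9.76%, 17.5% and 21.5% were higher.
The median log2 change of the 8 genes was 0.54, 0.77 and 0.83 in FDB, SOL and EDL at 5 months and 0.58, 0.87 and 1.24 at 2 months. It lay above the median of all genes by 0.37, 0.59 and 0.60 at 5 months and by 0.46, 0.77 and 1.10 at 2 months. Every mdx library lay above every wt library for 6 (FDB), 4 (SOL) and 3 (EDL) of the 8 genes at 5 months, where 38.0%, 32.2% and 51.5% of all genes did so. At 2 months this held for 8 (FDB), 7 (SOL) and 8 (EDL), where 44.3%, 36.2% and 40.6% did. The number of the 8 that limma called in FDB also moved when 1 library was left out. At 5 months it went from 4 to 2 when 1 of ns08, ns54, ns55 or ns56 (mdx) was left out. It was also 2 when 1 of ns14, ns15 or ns16 (wt) was left out. At 2 months it went from 1 to 0 without the mdx library ns04 and to 2 without the wt library ns09. The authors' deposited table also holds a ratio of mdx to wt for each gene, muscle and age, and all 48 of those ratios were above 1, from 1.23 (Isg15, FDB at 5 months) to 5.86 (Oas1a, EDL at 2 months).

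Within the groups single libraries were high for most of the 8 genes at once. In mdx mice library ns40, of EDL at 5 months, was the highest of its group for all 8 genes, with 15.3 RPKM of Irf7, 9.37 of Oasl2 and 37.2 of Bst2, against next values of 3.59, 2.86 and 18.4 RPKM. Library ns52, of SOL at 5 months, was also the highest for all 8 genes, with 8.35 RPKM of Isg15 and 4.04 of Ifit1, against next values of 3.24 and 1.47 RPKM. Library ns18, of SOL at 2 months, was the highest for 7 of the 8, and ns35, of EDL at 2 months, for 6. In wt mice ns46 (EDL at 5 months) and ns27 (SOL at 2 months) were the highest for all 8 and ns09 (FDB at 2 months) for 6. For comparison, ns40 was the highest of its group for 20.5% of all tested genes, ns52 for 16.7%, ns18 for 26.0%, and ns35 for 23.8%.
Without ns40, 4 of 8 genes rose in EDL at 5 months, where 59.2% of all genes did: Irf7 by 0.79, Oasl2 by 0.68, Oas1a by 0.60 and Bst2 by 0.78, while Isg15 had a log2 change of 0.49 (limma adjusted p = 0.0529). Without ns52, 5 rose in SOL at 5 months (52.2% of all genes), and Isg15 had 0.52 (limma adjusted p = 0.0525). Without ns18, 5 rose in SOL at 2 months (28.2% of all genes). Without ns35, 6 rose in EDL at 2 months (37.9% of all genes), among them Irf7 by 1.44, Oasl2 by 1.35 and Oas1a by 1.45. So Irf7, Oasl2, Oas1a and Bst2 passed with and without ns40, ns52 or ns35 in SOL at 5 months and in EDL at both ages. What set these libraries apart was not tested.

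The mdx libraries of 5 months also fall in blocks of library ID numbers, which the wt libraries share only in the first block (ns01 to ns48). In EDL the first block holds ns40 and 1 other mdx library, and all 8 genes rose there, by 0.56 (Usp18) to 1.85 (Irf7), where 46.2% of all genes did. In the 4 EDL libraries of the last block (ns54 to ns65) 4 of 8 rose (59.7% of all genes), Irf7 by 0.83, Oasl2 by 0.74, Oas1a by 0.64 and Bst2 by 0.78. In SOL the 4 libraries of the second block (ns49 to ns53), which had about 21.3 to 25.6 M reads, gave 6 genes that rose (51.0% of all genes). The 3 libraries of the last block, with about 44.1 to 58.6 M, gave 3 (49.6% of all genes): Oasl2, Oas1a and Bst2. In FDB the 3 libraries of the first block gave 2, Usp18 and Bst2 (40.0% of all genes), and the 4 of the last block gave 3, those and Oasl2 (54.7% of all genes). The shares of the 8 in the last block and in both FDB blocks were thus below those of all genes. The second and last blocks hold mdx libraries of 5 months only, so in them block and group cannot be told apart.

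**Figure D3:**
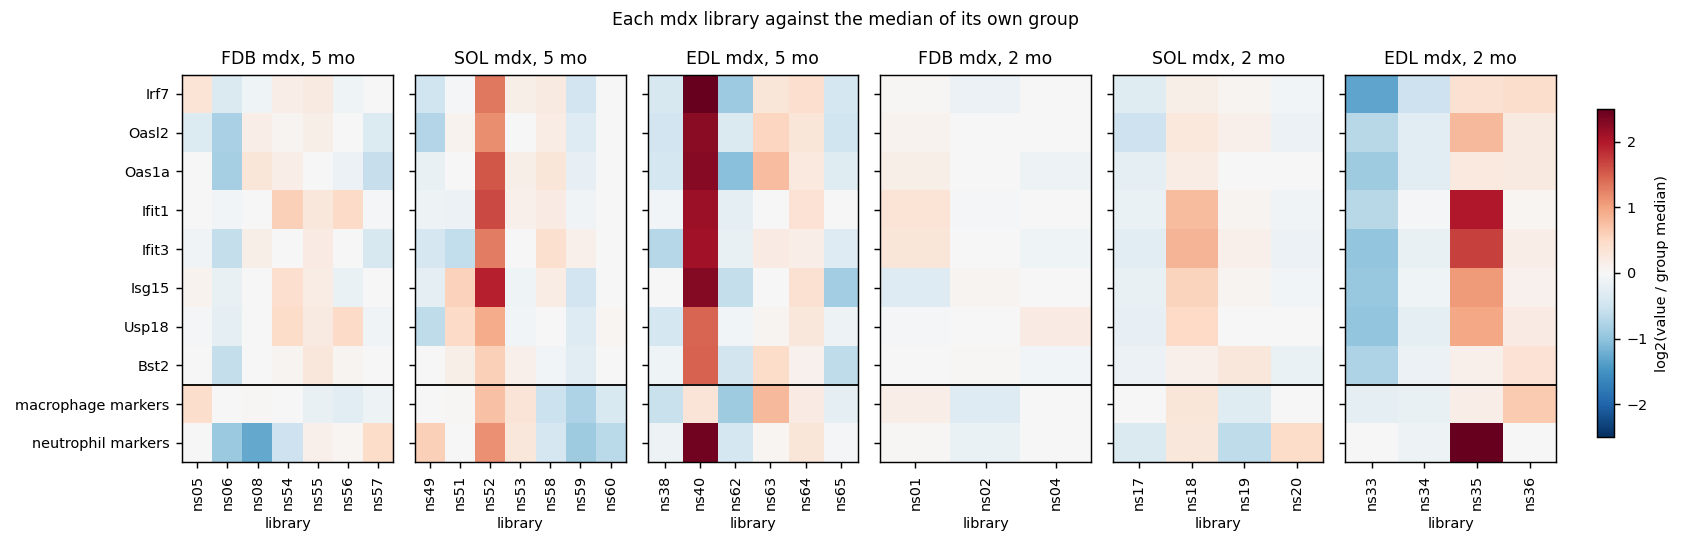
Each mdx library (columns, by group) against the median of its own group, in log2 units, for the 8 genes and for the summed RPKM of macrophage and neutrophil markers. Libraries ns40 and ns52 are above their group's median for all 8 genes. The neutrophil marker sums of ns35 (48.5 RPKM), ns40 (31.0 RPKM) and ns52 (12.2 RPKM) are the highest of their groups.

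Age was compared within each genotype and muscle. All wt libraries and all mdx libraries of 2 months were in the first block of ID numbers. Of the mdx libraries of 5 months, all of SOL, 4 of EDL and 4 of FDB were in later blocks. In mdx mice age and block therefore cannot be told apart in SOL, and are partly mixed in EDL and FDB. In EDL of mdx mice all 8 genes were lower at 5 than at 2 months, with log2 changes of -0.50 (Usp18) to -0.95 (Ifit3), where 11.6% of all genes were lower. Oas1a averaged 1.71 ± 1.72 RPKM at 5 months (SD, n = 6) and 3.53 ± 1.15 RPKM at 2 months (SD, n = 4), a log2 change of -0.88 (limma adjusted p = 0.00218). The ranges of the 2 ages overlapped for every gene. The count fell to 1 without ns35 and to 3 without ns36, ns38, ns62 or ns65.
In SOL of mdx mice Bst2 alone was lower at 5 months, with 12.8 ± 2.56 RPKM at 5 months (SD, n = 7) and 18.9 ± 2.95 RPKM at 2 months (SD, n = 4), a log2 change of -0.53 (limma adjusted p = 0.0331; 20.2% of all genes were lower). This count was 3 without ns52 and 0 without ns18, ns19, ns49 or ns59. In FDB of mdx mice limma called none of the 8 (3.46% of all genes were lower), with 2 at an unadjusted p below 0.05, Irf7 (-0.61) and Bst2 (-0.50).
In wt mice Bst2 fell with age in FDB, to 3.37 ± 0.440 RPKM at 5 months, against 6.66 ± 1.24 RPKM at 2 months (SD, n = 4 each; log2 change -0.80, limma adjusted p = 0.00591; 27.3% of all genes were lower). The other 7 genes did not pass there. In SOL and EDL of wt mice limma called none of the 8, where 13.7% and 21.2% of all genes were lower, with 1 (Bst2) and 0 at an unadjusted p below 0.05.

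Whether the genotype difference itself changed with age was tested as an interaction. The ID blocks of the mdx libraries limit this test in the same way. None of the 8 genes passed in FDB, SOL or EDL by limma, where 1.34%, 14.0% and 5.92% of all genes passed in either direction. At an unadjusted p below 0.05 there were 0, 0 and 1, the one being Oas1a in EDL, whose difference at 5 months less that at 2 months was -0.69 ± 0.30 on the log2 scale (SE; limma adjusted p = 0.169). Without ns40, 2 genes passed in EDL.
The same test between muscles also called none. At 2 months the difference between mdx and wt in FDB, less that in EDL, was -0.93 ± 0.45 for Irf7, -0.95 ± 0.38 for Oasl2 and -0.98 ± 0.33 for Oas1a (SE; limma adjusted p = 0.242, 0.140 and 0.0691). These 3 were the only ones at an unadjusted p below 0.05 in the 6 muscle comparisons, and 5.33% of all genes passed there in either direction. For the remaining comparisons the shares of all genes that passed were 25.7% (FDB against SOL), 18.4% (FDB against EDL) and 19.0% (SOL against EDL) at 5 months, and 1.55% (FDB against SOL) and 2.35% (SOL against EDL) at 2 months. Without the EDL library ns33, 1 gene passed in FDB against EDL at 2 months. A difference between muscles in the mdx change was thus not detected for any of the 8 genes.

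Among muscles of wt mice, Bst2 was the 1 gene that passed. It was lower in FDB than in SOL at 5 months, with 3.37 ± 0.440 and 6.25 ± 0.760 RPKM (SD, n = 4 each; log2 change -0.73, limma adjusted p = 0.00465; 19.0% of all genes were lower). It was also lower in FDB than in EDL, which had 6.81 ± 1.30 RPKM (log2 change -0.83, limma adjusted p = 0.0013; 15.1% were lower). Between SOL and EDL at 5 months, and in all 3 pairs of muscles at 2 months, limma called none of the 8, with 1 at an unadjusted p below 0.05, Bst2 in FDB against EDL at 2 months. The background there was 17.7% lower for SOL against EDL at 5 months, and 18.1% (FDB against SOL), 15.0% (FDB against EDL) and 19.8% (SOL against EDL) at 2 months.

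The 8 genes varied together over the libraries. Their 28 pairwise Pearson correlations of log2(RPKM + 1) over the 55 libraries ran from 0.79 (Ifit1 with Bst2) to 0.98 (Oasl2 with Oas1a), with a median of 0.89. After the group means were subtracted they ran from 0.67 to 0.94 (Irf7 with Oasl2), with a median of 0.85. The points share their library, scaling and depth, so these are descriptions.
The genes outside the set with the most similar pattern over the 55 libraries were Parp14 (r = 0.98 with the mean of the standardised values), Trim30a (0.97), Oas2 (0.96), Rtp4 (0.96) and Ifi47 (0.95). After group means were subtracted the closest were Oas2 (0.96), Zbp1 (0.95), Parp14 (0.95), Trim30a (0.94) and Rtp4 (0.94).

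The rest of the interferon pathway was described from 12 lists of 109 genes, of which 78 passed the filter on low values. Of these 78, 55, 50 and 60 rose and 3, 3 and 1 fell in FDB, SOL and EDL at 5 months, where 53.1%, 52.9% and 60.2% of all genes rose. At 2 months 35, 51 and 63 rose and 2, 2 and 2 fell, where 30.0%, 32.3% and 41.6% of all genes rose, and the count of each list below is to be read against these shares. With median-of-ratios scaling 31, 42 and 49 of them rose at 5 months, and 15, 44 and 59 at 2 months. The FDB count at 2 months was 22 without library ns01, and 60 when only the FDB libraries of that age entered the fit.

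No ligand could be tested. Among the 14 interferon genes listed (Ifnb1, alpha, kappa, epsilon and lambda genes, and Ifng) the highest value in any library was 0.0488 RPKM, and 6 of them had no value above 1e-06 RPKM in any of the 55. Of 5 receptor genes tested, 5, 3 and 4 rose at 5 months in FDB, SOL and EDL, and 4, 4 and 4 at 2 months, with Ifngr2 lower in EDL at 2 months. Ifnar2, a chain of the type I receptor, averaged 5.31 ± 0.36, 4.19 ± 0.68 and 3.84 ± 0.68 RPKM in FDB, SOL and EDL of mdx mice at 5 months, against 2.35 ± 0.16, 1.98 ± 0.29 and 1.46 ± 0.15 RPKM in wt mice (SD), and rose by 0.91, 0.80 and 0.97. Of 6 JAK-STAT genes, 3, 3 and 4 rose at 5 months and 1, 4 and 4 at 2 months, which at 5 months was close to the shares of all genes. Stat2 and Irf9, partners in the complex that binds the element, rose by 1.01 and 0.90 in EDL at 2 months, while Jak2, a kinase of the interferon gamma receptor, fell there by 0.45 and in EDL at 5 months by 0.59. Other JAK-STAT genes that fell were Jak1 and Jak2 in FDB at 5 months (-0.18 and -0.20) and Jak1 in FDB at 2 months (-0.22).

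Of 5 other interferon regulatory factors, 4 rose in each comparison except SOL at 2 months, where 3 did. Irf8, a factor of macrophages and dendritic cells, averaged 2.59 ± 0.50 RPKM in SOL of mdx mice at 5 months and 0.514 ± 0.041 RPKM in wt mice (SD), and rose by 1.23. Of 11 tested nucleic acid sensors and adaptors, 8, 9 and 10 rose at 5 months and 7, 9 and 10 at 2 months. Tmem173, which encodes STING, the adaptor of the DNA sensing pathway, rose by 0.71, 1.12 and 1.26 at 5 months and by 0.50, 0.94 and 1.44 at 2 months. Myd88, the adaptor of Toll-like receptors, rose by 1.43 in EDL at 2 months. Mavs, the adaptor of the RNA sensors, passed in none of the 6 comparisons, with log2 changes from -0.14 to 0.13.
Of 3 further genes of the OAS and RNase L list, 2, 2 and 3 rose at 5 months and 2, 3 and 3 at 2 months, and Oas2 rose by 1.39 in EDL at 2 months. Of 2 other IFIT genes 1, Ifit2, rose, in EDL at 2 months (0.64), and the close copy Ifit3b passed in none. Of 4 genes of ISG15 conjugation, 4, 3 and 4 rose at 5 months and 2, 4 and 4 at 2 months. Among them Ube2l6, the enzyme that carries Isg15 to its targets, rose in all 6 comparisons, by 0.47 to 0.80.

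Of 23 antiviral effectors tested, 19, 19 and 21 rose at 5 months and 14, 22 and 22 at 2 months. Ifitm3, which blocks virus entry at membranes, was the most abundant of them, with 82.4 ± 17.7 RPKM in EDL of mdx mice at 2 months and 40.3 ± 2.0 RPKM in wt mice (SD, n = 4 each). It rose by 0.99 there and by 1.03, 1.35 and 1.16 in FDB, SOL and EDL at 5 months. Ifi27l2a rose by 1.38, 1.76 and 1.52 at 5 months, and Rtp4 by 1.47 in EDL at 2 months. Mx1 and Mx2 did not pass the filter on low values.
Interferon-inducible GTPases were mixed: of 14 tested, 7, 3 and 6 rose and 1, 2 and 0 fell at 5 months, and 0, 1 and 8 rose and 1, 1 and 0 fell at 2 months. The share that rose was below that of all genes except in EDL at 2 months. Gbp6, a guanylate-binding protein, fell in FDB and SOL at both ages. It averaged 3.41 ± 0.92 RPKM in FDB of mdx mice at 5 months (range 2.09 to 4.88) and 10.3 ± 1.9 RPKM in wt mice (8.62 to 12.8), and fell by 1.37. In SOL Gbp6 had 14.3 ± 4.5 RPKM in mdx and 37.1 ± 1.0 RPKM in wt mice at 5 months (fell by 1.38), and 11.8 ± 1.4 against 25.9 ± 7.0 RPKM at 2 months (fell by 1.05). The ranges did not overlap in these, and in FDB at 2 months it fell by 0.64. In EDL, where Gbp6 was low in wt mice (2.48 and 1.91 RPKM at 5 and 2 months), it did not pass. Irgm2 rose by 1.17 in EDL at 5 months, Ifi47 by 1.30 and Iigp1 by 1.21 in EDL at 2 months.
The 1 tested interferon-induced chemokine, Cxcl11, fell in SOL, to 0.645 ± 0.20 RPKM in mdx mice at 5 months, against 1.98 ± 0.23 RPKM in wt mice (log2 change -0.86), and by 0.33 at 2 months. Of 4 negative regulators, 3, 4 and 4 rose at 5 months and 1, 1 and 3 at 2 months, with Ptpn6 higher in all 6 comparisons (0.74 to 1.32) and Socs3, an inhibitor of JAK kinases, rising by 2.12 in EDL at 5 months. Among genes called higher here, Ifngr2, Irf2, Tbk1 and Tor3a in FDB and Irf2 in EDL at 5 months turned below 0 with median-of-ratios scaling, and Irf2, Eif2ak2 and Tor3a in FDB and Irf2, Herc6 and Xaf1 in EDL did so with quantile normalization.

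**Figure D4:**
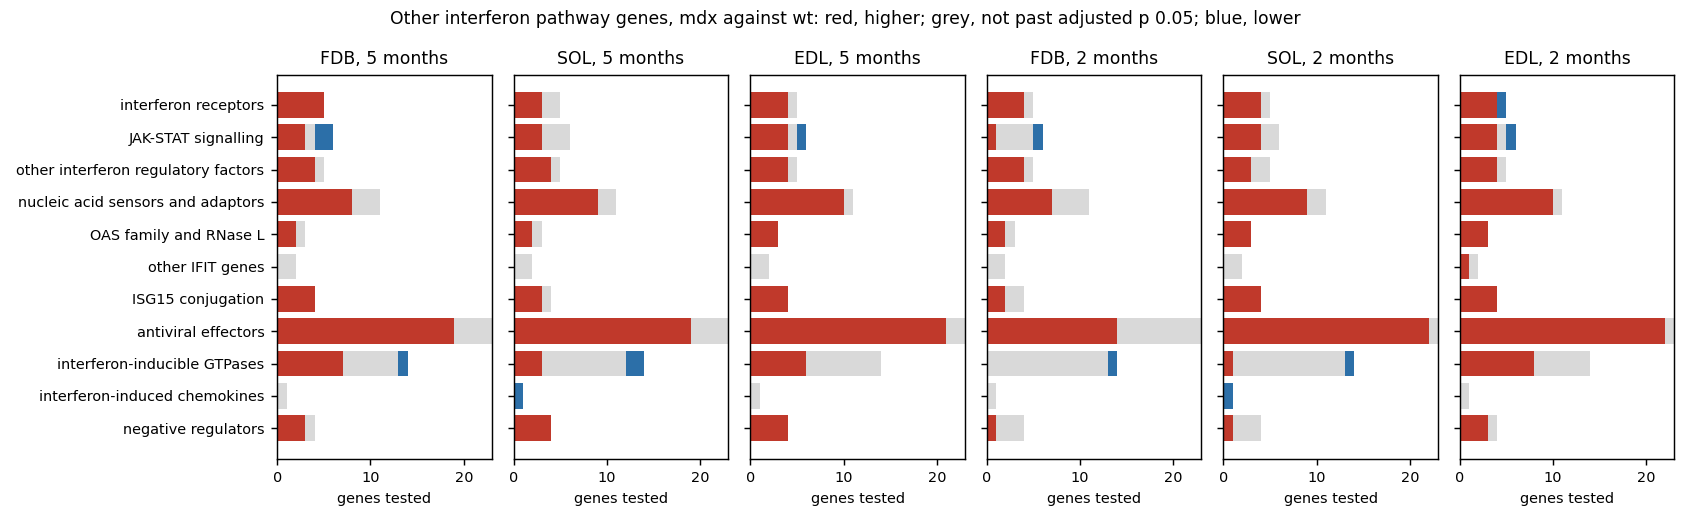
Number of tested genes of each interferon list that were higher, lower or did not pass in mdx against wt muscle (limma adjusted p below 0.05), by muscle and age. In EDL at 2 months 63 of the 78 genes are higher and 2 lower; the GTPase list holds genes in both directions.

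Markers of blood-derived cells moved with the same genotype. The summed RPKM of 12 macrophage markers ran from 170.5 to 839 RPKM in mdx libraries of 5 months and from 289 to 693 RPKM in those of 2 months, against 20.2 to 182 and 54.5 to 273 RPKM in wt libraries. Of the 12 markers, 12, 10 and 11 rose at 5 months and 12, 11 and 11 at 2 months, in FDB, SOL and EDL. Of all genes 53.1%, 52.9% and 60.2% rose at 5 months and 30.0%, 32.3% and 41.6% at 2 months. In bulk muscle, more cells of a type and more RNA per cell cannot be told apart, and the part of these cells in the levels of the 8 genes was not tested.
By level the 2 quantities did not rank the muscles of mdx mice alike. FDB of mdx mice had the highest macrophage sums (519 to 839 RPKM at 5 months) but the lowest levels of the 8 genes among mdx groups (mean log2(RPKM + 1) of 1.13 to 1.52 at 5 months). SOL of mdx mice at 5 months had sums of 196 to 555 RPKM and means of 1.60 to 2.81, and EDL had sums of 170.5 to 549 RPKM and means of 1.39 to 3.27. In SOL the library with the highest sum, ns52, also had the highest mean of the 8 genes, while in EDL at 5 and 2 months the highest sums were in ns63 and ns36, not in ns40 and ns35. In wt mice at 5 months FDB also had the highest sums (120.5 to 182 RPKM, against 20.2 to 57.2 in SOL and 38.8 to 92.1 in EDL). The median log2 change of the 12 markers was 1.56, 2.00 and 1.66 in FDB, SOL and EDL at 5 months. At 2 months it was 0.99, 1.78 and 1.65. By change from wt, FDB was thus lowest at both ages, for the markers as for the 8 genes.
Over the 55 libraries the macrophage sum had r = 0.50 with the mean pattern of the 8 genes, and 0.43 after group means were subtracted. The neutrophil sum had 0.32 over the libraries and 0.71 after group means were subtracted. It was 48.5 RPKM in ns35, with a group median of 6.83 RPKM, and 31.0 RPKM in ns40, with a group median of 5.84 RPKM, and S100a8 measured 17.1 RPKM in ns35 and 8.85 RPKM in ns40. In ns52 the sum was 12.2 RPKM, also the highest of its group, with a group median of 5.58 RPKM. There S100a8 measured 1.78 RPKM, below the 3.22 RPKM of ns49. Ly6g, a defining neutrophil marker, averaged under 0.05 RPKM in every group. It was 0 in ns35, ns40 and ns52 and in the other mdx libraries of their groups, so it says nothing about how they differ. The part of these cells in the values of ns40, ns52 and ns35 was not tested.

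**Figure D5:**
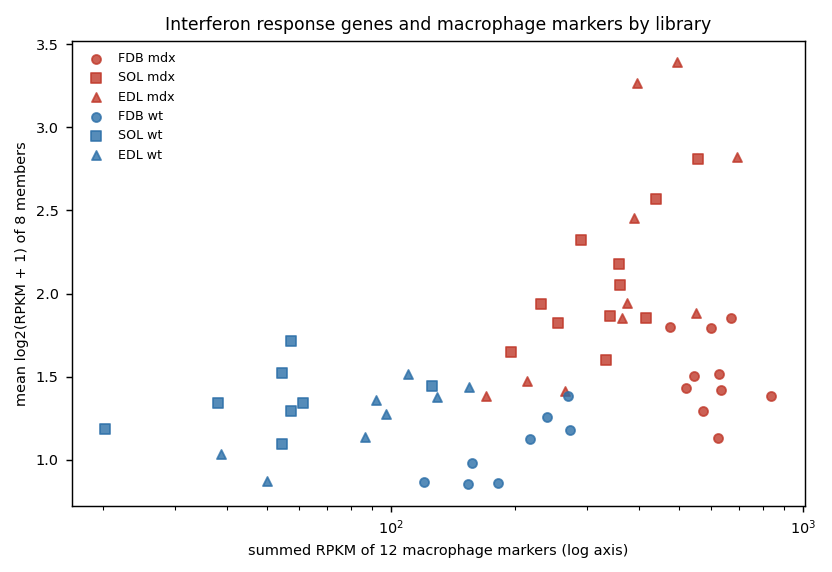
Mean log2(RPKM + 1) of the 8 genes in each library against its summed RPKM of 12 macrophage markers, by muscle and genotype. FDB libraries of mdx mice lie at the right (475 to 839 RPKM) with means of at most 1.85, and at the top lie ns35, ns40, ns36 and ns52 with means of 3.39, 3.27, 2.82 and 2.81.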

How the data were processed

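Muscle RNA was extracted with Trizol and a column kit, poly(A) RNA was selected and libraries were made on an automated system, per the labels' protocols. CASAVA 1.8.2, TopHat2 2.1.0, Partek 6.6 and the build mm10 appear in the submitters' processing notes, and the authors deposited 1 table of RPKM values per gene and library, with ratios of mdx to wt as linear fold values computed by the authors. No source used here states the annotation, the strand setting or how reads with several matches were counted. RPKM values are not counts, so no count test was run, and the depths given are approximate: 65.7% to 86.3% of low values came within 0.1 of a whole read.

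Library columns were assigned to groups by the group name in the column headers, which carry no replicate number. No 2 libraries held identical values. Tests used limma 3.58.1 in R 4.3.3 on log2(RPKM + 1) with 12 group means over all 55 libraries, moderated with a trend on mean level, for the 12541 genes whose mean RPKM was 0.5 or more. Benjamini-Hochberg adjustment was made within each of 27 contrasts, at a threshold of 0.05. On simulated data with 200 of 12541 genes changed, the same steps recovered 85.1% to 95.5% of 1.5-fold changes across the 6 genotype comparisons, with 8 to 14 false calls. Those changes were 1.5-fold in RPKM + 1, with normal spread and no library far from its group. At low levels a 1.5-fold change in RPKM is smaller on that scale, and many more genes were called in the real data. These rates therefore do not carry over to the 8 genes. The genes and lists were chosen with earlier results of these data known. All 8 genes are named; of each list, those called with the largest changes are named. Mavs, Ifit3b, Mx1 and Mx2, and the comparisons in FDB libraries alone for the pathway lists, were chosen after their values were seen. Positions come from GENCODE M21, sequences from RefSeq. A planned comparison of protein sequences was not run.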

Additional observations from a re-analysis of the deposited data

Results flagged for a closer look

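Of 88 combinations of a gene and a group of 4 or more libraries, 18 held a far library. Its gap to the nearest other one was large against the range of the group by Dixon's criterion. For separate trials with normal values chance gives about 1 in 20. The 8 genes vary together over the same libraries, so the combinations are not separate trials and the count cannot be set against that rate. Of the 18, 8 were 1 library, ns40 of EDL in mdx mice at 5 months. It had 15.27 RPKM of Irf7, 9.371 of Oasl2, 5.103 of Oas1a and 4.049 of Ifit1, where the next library had 3.59, 2.86, 1.78 and 1.17 RPKM. It also had 10.23 RPKM of Ifit3, 7.481 of Isg15, 2.846 of Usp18 and 37.24 of Bst2, where the next had 2.77, 1.98, 1.27 and 18.4 RPKM.

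A further 7 were library ns52 of SOL in mdx mice at 5 months, with 7.607 RPKM of Irf7, 5.362 of Oasl2, 3.631 of Oas1a and 4.035 of Ifit1, where the next library had 3.54, 2.75, 1.52 and 1.47 RPKM. It had 6.298 RPKM of Ifit3, 8.345 of Isg15 and 18.06 of Bst2, where the next had 3.45, 3.24 and 13.3 RPKM. In EDL of mdx mice at 2 months, ns35 had 7.889 RPKM of Ifit1, where the next had 2.04 RPKM. In FDB of mdx mice at 5 months, ns06 was low for Bst2 with 4.743 RPKM, the nearest being 7.07 RPKM. In FDB of wt mice at 2 months, ns12 had 0.8848 RPKM of Oasl2, the nearest being 0.787 RPKM.

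Library ns40 was the highest of its group for 62 of 78 tested pathway genes (79.5%, against 20.5% of all genes). For ns52 it was 61 (78.2%, against 16.7%) and for ns35 58 (74.4%, against 23.8%). In other groups ns18 (SOL of mdx mice at 2 months) was the highest for 57 (73.1%, against 26.0% of all genes). Library ns46 (EDL of wt mice at 5 months) was so for 48 (61.5%, against 31.1%). Library ns01 (FDB of mdx mice at 2 months) was so for 47 (60.3%, against 44.7%). The groups hold 3 to 7 libraries, so these percentages are to be read against the share of all genes. For the macrophage markers ns40, ns52 and ns35 were the highest for 4, 10 and 0 of 12, and for the tested neutrophil markers for 5, 3 and 5 of 5. Their estimated depths were about 40.2, 25.6 and 20.3 M reads. The part of depth or of those cells in their values was not tested.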

How the results depend on the processing

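No paired analysis was possible because the columns of the table carry group names and no replicate number, so the planned replicate block was not run. In EDL at 2 months the number of the 8 genes that rose stayed at 7 or 8 under each of the 6 other settings tried. In EDL at 5 months it was 8 with a pseudocount of 0.1 and 8 in the first ID block, against 5. For SOL at 5 months the last block gave 3 and quantile normalization 3, against 6. In FDB at 5 months it was 2 with median-of-ratios scaling, 2 without the filter, 2 in the first block, 1 with quantile normalization and 7 from its own 2 groups, against 4. In FDB at 2 months it was 8 with array weights, 8 from its own 2 groups, 3 with a pseudocount of 0.1, 0 with median-of-ratios scaling and 0 with quantile normalization, against 1. With quantile normalization 24.4% (FDB) and 24.3% (SOL) of all genes were higher at 5 months, against 53.1% and 52.9%. In FDB at 2 months 11.4% were, against 30.0%. Shares for the pseudocount of 0.1, no filter and array weights are not given here, so those counts cannot be read against all genes. The log2 changes of Ifit1 (-0.032) and Isg15 (-0.11) in FDB at 5 months turned below 0 with quantile normalization. The all-gene count rose to 7922 (FDB, against 4338) and 7700 (SOL, against 5010) at 2 months with array weights, and fell to 2616 in FDB without ns01. The causes were not tested.

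For the difference between mdx and wt in FDB less that in EDL at 2 months, 1 gene passed with median-of-ratios scaling and 1 with quantile normalization, against 0. Among wt muscles, FDB against EDL gave 1 (median-of-ratios), 1 (pseudocount 0.1) and 3 (quantile) at 2 months, against 0, and 2 under each of the 3 settings at 5 months, against 1. FDB against SOL gave 1 (median-of-ratios) and 2 (quantile) at 2 months, against 0, and 2 under each of the 3 at 5 months, against 1. For these comparisons the shares of all genes under the other settings are not given either. Leaving out 1 library at a time gave counts of 2 to 4, 5 to 6 and 4 to 7 in FDB, SOL and EDL at 5 months, and 0 to 2, 5 to 6 and 6 to 8 at 2 months. The age comparison within mdx mice gave 0 to 3 (SOL) and 1 to 8 (EDL), and the interaction of genotype and age in EDL 0 to 2. The interaction for FDB against EDL at 2 months gave 0 to 1, and wt FDB against EDL gave 0 to 1 at 2 months and 1 to 2 at 5 months, and wt FDB against SOL 0 to 1 at 2 months. At levels near 1 RPKM the pseudocount of 1 shrinks the change shown on the log2 scale, which limits Oas1a, Ifit1 and Usp18 most.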

Other observations

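Markers of lymphoid cells were low. Summed NK cell markers reached 0.351 to 2.54 RPKM in EDL of mdx mice at 5 months and 1.04 to 2.71 RPKM at 2 months, against at most 0.104 and 0.132 RPKM in wt mice. In SOL of mdx mice they reached 0.431 to 1.79 RPKM at 5 months, and in FDB at most 0.349 RPKM. Over the 55 libraries this sum had the highest correlation with the mean pattern of the 8 genes among the marker sums (r = 0.81), and 0.58 after group means were subtracted. All its 6 genes averaged under 0.05 RPKM in EDL of wt mice at both ages, and none passed the filter, so no gene of it was tested.

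Summed T cell markers were 0.560 to 2.79 RPKM in mdx libraries and at most 0.951 RPKM in wt libraries (r = 0.68 and 0.47 by the 2 measures). B cell markers summed to 0.349 to 2.48 RPKM in mdx libraries (r = 0.52 and 0.27). Markers of plasmacytoid dendritic cells, which are known for secreting type I interferon, summed to under 2 RPKM in all libraries but 1, ns57 of FDB in mdx mice at 5 months, with 12.5 RPKM (r = 0.02 and 0.21). No gene of these lists passed the filter.

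Of 6 endothelial markers, 5, 0 and 1 were higher and 0, 1 and 0 lower in mdx FDB, SOL and EDL at 5 months, and 1, 1 and 2 higher at 2 months (r = 0.47 and -0.01). Of 9 muscle fibre markers, 0, 3 and 1 were higher and 4, 2 and 2 lower at 5 months, and 0, 0 and 2 higher and 1, 2 and 2 lower at 2 months (r = 0.09 and -0.09). Of 5 tested neutrophil markers, 0, 2 and 4 were higher and 1, 0 and 0 lower at 5 months, and 0, 2 and 4 higher at 2 months. Of all genes, 53.1%, 52.9% and 60.2% were higher and 9.46%, 11.3% and 8.52% lower at 5 months. At 2 months 30.0%, 32.3% and 41.6% were higher and 4.60%, 7.68% and 8.69% lower. The counts of these 3 lists are to be read against those shares.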
